A study of Caenorhabditis elegans with 2 samples.

Results

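On the X chromosome of *Caenorhabditis elegans*, 2529 of the 30000 regions in the pooled LIN-11 ChIP-seq list had their summit away from protein-coding promoters and outside coding exons. A summit counted as outside promoters when it was not in the window from 1000 bp upstream to 200 bp beyond the start of a protein-coding transcript. The Ensembl annotation lists 4149 such starts on X. The members therefore fell in intergenic sequence, introns, untranslated regions (UTRs) and exons of non-coding genes. The last class also takes in pseudogenes, and introns of non-coding genes where no protein-coding transcript lies. Of these 2529 regions, 172 were also in the authors' optimal list, which is the product of the irreproducible discovery rate procedure. They were set against the other 2357 X regions, and against 9683 autosomal regions and 1543 X promoter regions chosen by the same windows.

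The data came from 2 biological replicates that form a single group, without another condition to set beside it. Both were whole second-stage (L2) larvae of mixed sex from strain OP62, with the genotype unc-119(ed3) III; wgIs62, a stable line that carries LIN-11 with GFP and FLAG at its C terminus. The wgIs62 array is 1 transgene line and is shared by both replicates, so there is no group without the tagged protein here. The label lists lin-11 as the antibody, and the experiment is described as directed at eGFP-lin-11. Replicate 1 came from the producing laboratory and its label names sonication with a microtip, while replicate 2 came from the CGC, the worm stock centre, and its label gives a fragment size range. A control alignment was used by the authors and its data were not analysed here. Whole animals were used, so the share of cells behind any region cannot be told from these values.

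LIN-11 belongs to the LIM homeodomain transcription factors, which join a DNA-binding homeodomain to LIM domains, and is known for its part in the fates of vulval and uterine cells and of some neurons. The X chromosome of hermaphrodite worms is bound by the dosage compensation complex, a condensin-like machine that lowers X transcription and is recruited at X sites (rex) carrying a motif known as MEX. Non-coding genes on X include many tRNA genes, which RNA polymerase III transcribes from promoter elements inside the gene, the A box and the B box.

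The reference sequence at the summits that carry the main results is shown first, 50 bp on each side of the summit, on the plus strand of WBcel235 (the assembly of ce11), from the RefSeq copy of that genome. The first 6 are the 5 X regions outside promoters of highest pooled signal and the stronger of 2 near xol-1, and capitals mark every match of GCGNAGG, read on either strand (CCTNCGC is its reverse complement). GCGCAGG, the core of the MEX motif, is one form of GCGNAGG.
F20B6.9 region (chrX:4209230-4209330): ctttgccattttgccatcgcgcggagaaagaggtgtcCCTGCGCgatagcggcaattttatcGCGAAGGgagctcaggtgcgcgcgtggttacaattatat
W02H3.3 region (chrX:11094194-11094294): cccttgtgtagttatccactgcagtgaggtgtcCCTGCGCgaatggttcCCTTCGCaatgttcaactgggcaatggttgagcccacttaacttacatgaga
mom-1 intron region (chrX:6296493-6296593): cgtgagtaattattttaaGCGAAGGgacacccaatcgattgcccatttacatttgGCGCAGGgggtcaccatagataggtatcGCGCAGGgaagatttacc
gtr-1 region (chrX:806632-806732): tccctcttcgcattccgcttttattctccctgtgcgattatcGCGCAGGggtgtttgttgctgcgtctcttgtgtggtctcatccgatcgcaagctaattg
T27A8.7 region (chrX:16056563-16056663): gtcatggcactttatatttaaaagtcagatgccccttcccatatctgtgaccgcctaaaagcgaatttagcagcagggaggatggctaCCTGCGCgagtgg
xol-1 region (chrX:8036356-8036456): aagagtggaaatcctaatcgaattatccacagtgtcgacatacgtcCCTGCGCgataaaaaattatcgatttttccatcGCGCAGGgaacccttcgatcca

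The next 3 show other optimal X regions outside promoters. The first is the strongest of them with no GCGNAGG match, in lower case throughout. In the second, capitals mark the start of the glycine tRNA gene M02F4.t1. In the third, they mark a GAGAGAG match.
C30E1.4 region (chrX:16929708-16929808): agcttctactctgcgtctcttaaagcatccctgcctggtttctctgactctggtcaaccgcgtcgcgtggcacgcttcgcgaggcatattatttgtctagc
M02F4.2 region (chrX:3036082-3036182): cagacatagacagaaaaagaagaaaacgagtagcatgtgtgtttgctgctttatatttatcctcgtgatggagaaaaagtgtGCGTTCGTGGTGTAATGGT
tps-1 region (chrX:17479967-17480067): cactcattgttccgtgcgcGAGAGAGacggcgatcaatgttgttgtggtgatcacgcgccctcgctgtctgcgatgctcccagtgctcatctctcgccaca

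The 172 optimal regions made up 6.80% of the X regions outside promoters (Wilson 95% interval 5.88 to 7.85%), against 6.39% over all 30000 pooled regions. Of the autosomal regions outside promoters, 483 of 9683 (4.99%) were optimal, and of the X promoter regions 227 of 1543 (14.7%). The X share was 1.81 percentage points above the autosomal share (Newcombe 95% interval 0.791 to 2.94), and the X promoter share was higher still (difference -7.91 points, -9.98 to -5.93). Among intergenic regions, 8.77% on X and 6.63% on autosomes were optimal, a difference of 2.14 points (0.368 to 4.13). Among introns the shares were 3.31% on X and 3.05% on autosomes, a difference of 0.265 points whose interval, -0.799 to 1.62, includes 0. All such intervals cover the counting of regions only, and neighbouring regions are not independent.

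The share in the optimal list was far higher next to tRNA genes, on X as on autosomes. Of the 123 X regions with a summit within 200 bp of a tRNA gene, 42 (34.1%, interval 26.4 to 42.9%) were optimal, close to the 54 of 158 (34.2%) among autosomal regions, with a difference of -0.0309 points (-11.0 to 11.1). Away from tRNA genes, 130 of 2406 X regions (5.40%) and 429 of 9525 autosomal regions (4.50%) were optimal. That difference, 0.899 points, had an interval of -0.0418 to 1.95, which includes 0.

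The optimal X regions sat in different places from the other X regions. Of the 172, 96 were intergenic (55.8%), against 999 of 2357 of the others (42.4%), a difference of 13.4 points (5.70 to 20.9). Introns held 34 of the optimal regions (19.8%) and 993 of the others (42.1%), a difference of -22.4 points (-27.99 to -15.5). Exons of non-coding genes held 41 (23.8%) against 286 (12.1%), a difference of 11.7 points (5.79 to 18.7). Of those 41, 20 lay within 200 bp of a tRNA gene, and 20 of the remaining 21 within 200 bp of a gene annotated as ncRNA. A UTR held 1 optimal region (0.581%), in the neuropeptide gene nlp-76, against 79 of the others (3.35%), a difference of -2.77 points that was -4.20 points without replicate 2. With the regions near tRNA genes left out, the difference for exons of non-coding genes was 5.48 points and its interval included 0 (-0.0260 to 12.9). The shift was not particular to X. Among autosomal regions outside promoters, optimal minus other was 12.1 points for intergenic sequence and -21.1 points for introns. It was 11.4 points for exons of non-coding genes and -2.36 points for UTRs.

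The groups had similar distances to protein-coding starts. The median distance from summit to the nearest transcript start was 2392 bp in the optimal regions (95% interval of the median 2024 to 2642 bp, quartiles 1525 and 3739 bp) and 2245 bp in the others (2135 to 2346 bp), and these intervals overlap. The optimal regions lay upstream of the nearest start in 102 of 172 cases (59.3%), the others in 1107 of 2357 (47.0%). Over 5000 bp from any start were 21 of the optimal regions (12.2%) and 343 of the others (14.6%). The 172 regions had 147 different nearest genes.

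The pooled signal is the authors' value for each region, and because the optimal regions are those of highest signal in the pooled list, the difference in signal between them and the rest is built in. It ran from 27.86 to 209.8 in the optimal X regions (median 43.7) and from 5.43 to 27.76 in the others (median 8.45). At the limit, the lowest inside were a region near F09C8.1 with 27.86 and one near nhr-3 with 28.25. The highest outside were a region near dpy-23, which encodes an AP2 adaptor subunit, with 27.76, and one in an intron of F09A5.3 with 27.68. The dpy-23 region held 1 GCGCAGG match.

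The 5 X regions outside promoters of highest pooled signal all had GCGCAGG within 50 bp of the summit. Promoter regions of X, which are not among them, reached a pooled signal of 193.8. The region at chrX:4209196-4209356, intergenic and at -1795 bp from the start of F20B6.9 (negative values lie upstream), had a pooled signal of 209.8, rank 8 of all 30000. Replicate 1 gave it a signal of 63.88 (rank 23), replicate 2 one of 142.6 (rank 9). The region at chrX:11094154-11094309, at 3942 bp downstream of the start of W02H3.3, also had 209.8 (pooled rank 9), with 70.77 in replicate 1 (rank 15) and 143.1 in replicate 2 (rank 8). Both stood near the top of each replicate list, and signal sizes are not compared between lists because their scaling is not stated.

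The third, chrX:6296480-6296636, lay in an intron of mom-1, a Porcupine homologue needed for Wnt secretion, and its nearest start was that of cest-16 at -3399 bp. It had a pooled signal of 206.8 (rank 10), with 87.22 in replicate 1 (rank 5) and 120.1 in replicate 2 (rank 18). It held 3 GCGNAGG matches within 50 bp of the summit, of which 2 were GCGCAGG, as the sequence above shows. The fourth, chrX:806634-806737, lay 3904 bp downstream of the start of gtr-1 and had 180.7 (rank 18), with 61.52 (rank 30) in replicate 1 and 120.0 (rank 19) in replicate 2. The fifth, chrX:16056451-16056774, lay 1068 bp downstream of the start of T27A8.7 and had 140.4 (rank 56), with 44.4 (rank 124) in replicate 1 and 97.96 (rank 45) in replicate 2. The first 4 were the only optimal X regions outside promoters narrower than the full 324 bp, at 161, 156, 157 and 104 bp.

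**Figure D1:**
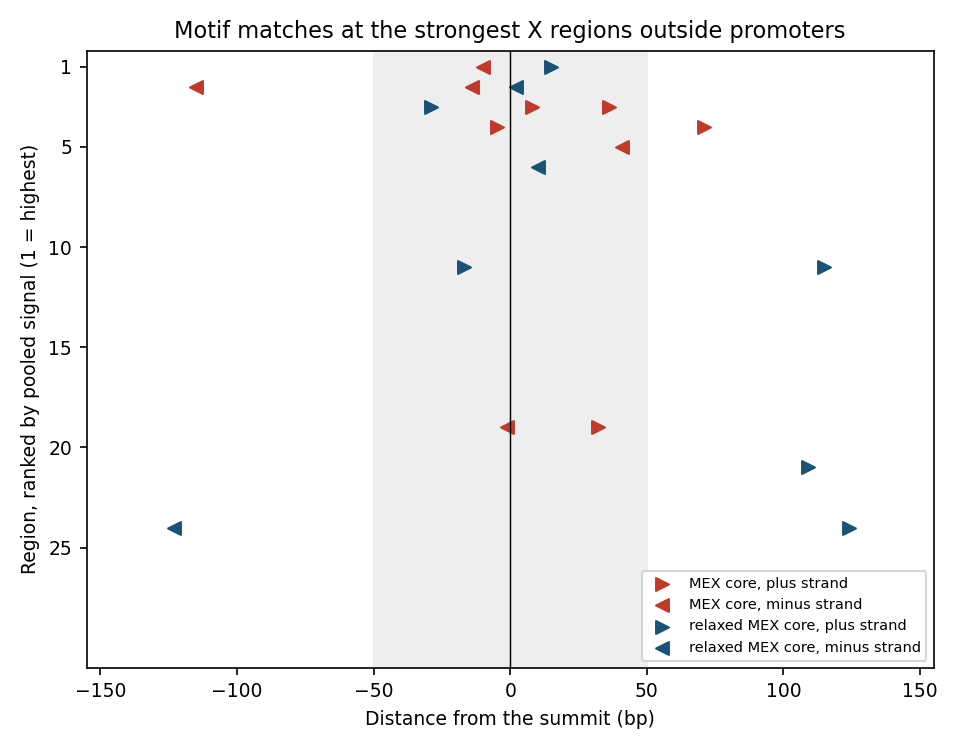
Positions of motif matches (x axis, distance from the summit in bp) in the 25 X regions outside promoters of highest pooled signal (y axis, rank by pooled signal, 1 at the top). Red arrowheads are GCGCAGG (MEX core) and blue ones the other forms of GCGNAGG (relaxed MEX core), pointing right on the plus strand and left on the minus strand; the grey band is 50 bp on each side of the summit. Ranks 1 to 5 each have a red arrowhead in the band, and rank 19, near xol-1, has a pair.

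Over all optimal X regions, 10 of 172 (5.81%, interval 3.19 to 10.4%) held GCGCAGG within 50 bp of the summit, against 14 of 2357 of the others (0.594%), a difference of 5.22 points (2.56 to 9.78). Without replicate 2, with the strongest 1917 regions of replicate 1 in place of the optimal list, the difference was 3.11 points (1.12 to 7.19), and without replicate 1 it was 5.59 points. In the whole pooled list the share was 0.533%, and windows of the same length tiled along the genome held it in 0.201% on X and 0.198% on autosomes. Among optimal autosomal regions outside promoters, 4 of 483 (0.828%) held it, and the difference of X minus autosomal was 4.99 points (2.06 to 9.57). Optimal X promoter regions held it in 6 of 227 (2.64%), and other X promoter regions in 2 of 1316 (0.152%). Between optimal X regions, outside promoters minus promoters was 3.17 points, with an interval that includes 0 (-0.818 to 7.95). The motif itself was about equally dense in both parts of the genome, with 357 occurrences on X (20.2 per Mb) and 1642 on autosomes (19.9 per Mb). Of these, 12 on X and 4 on autosomes fell at optimal regions outside promoters.

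Most of the matches at high signal stood at the very top of the list. After the strongest 5, all with GCGCAGG, 1 of the 15 regions ranked 6 to 20 held it, and 4 of the 152 ranked 21 to 172 did. The GCGCAGG regions included 5 of the 7 X regions outside promoters among the 100 strongest pooled regions of the genome. Of the 10 regions, 8 were intergenic, 1 intronic and 1 in an exon of a non-coding gene, and none lay within 200 bp of a tRNA gene. Around the 12 matches in these 10 regions, the letters shared by at least 8 of the 12 spelled TCGCGCAGGGA. The base before the core was C in 10 of 12 and the one before that T in 10 of 12, and the core was followed by G in 9 and then A in 8.

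Among X regions outside promoters, the share in the optimal list was higher where more GCGNAGG matches, GCGCAGG included, lay. With no match within 50 bp, 157 of 2440 X regions were optimal (6.43%), with 1 match 11 of 84 (13.1%, interval 7.47 to 21.95%), and with 2 or more 4 of 5 (80.0%, 37.6 to 96.4%). The same counts on autosomes were 470 of 9435 (4.98%), 13 of 234 (5.56%) and 0 of 14 (upper limit 21.5%). In X promoter regions, 2 or more matches lay at 3 of 227 optimal regions and at 1 of 1316 others. The groups with 2 or more matches are small. The 4 optimal ones on X outside promoters are the F20B6.9, W02H3.3, mom-1 and xol-1 regions printed above. GCGNAGG as a whole was found at 15 optimal X regions (8.72%), 74 of the others (3.14%) and 2.71% of all pooled regions. Of these X regions, 10 optimal ones and 14 of the others held GCGCAGG itself, as did all 4 optimal ones with 2 or more matches. Thus 10 of the 24 X regions outside promoters with GCGCAGG were optimal (41.7%, interval 24.5 to 61.2%). Whether the number of matches or the other forms of GCGNAGG matter apart from GCGCAGG was not tested.

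One of these regions lay near a gene upstream of dosage compensation itself, xol-1, the switch gene that responds to the number of X chromosomes and sets male or hermaphrodite development. It lay at chrX:8036244-8036567, at -4907 bp from the xol-1 start, with a pooled signal of 85.49 (rank 258) and 2 GCGCAGG matches on opposite strands. In replicate 2 it had 63.03 (rank 179), and replicate 1 had no summit within 100 bp. The nearest summit of replicate 1 was 238 bp away and belonged to a second, overlapping optimal region at chrX:8036486-8036809. That neighbour had a pooled signal of 71.3, with 33.08 (rank 289) in replicate 1 and 37.2 (rank 596) in replicate 2, no GCGCAGG, and the arginine tRNA gene C18A11.t2 within 200 bp. Replicate 2 thus listed both summits and replicate 1 the one at the tRNA gene.

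The other 4 GCGCAGG regions were much weaker. They lay near F22H10.2 (pooled signal 39.52), sur-5 (38.97), sedl-1, which encodes a subunit of the TRAPP trafficking complex (28.91), and the gene with the identifier WBGene00020828 (28.82). The F22H10.2 region had 18.19 in replicate 1 (rank 1026) and 25.6 in replicate 2 (rank 1114), and the sedl-1 region 8.741 (rank 4320) and 17.11 (rank 1963). The 10 regions therefore fall into strong and weak ones with a wide gap, from 85.49 to 39.52.

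**Figure D2:**
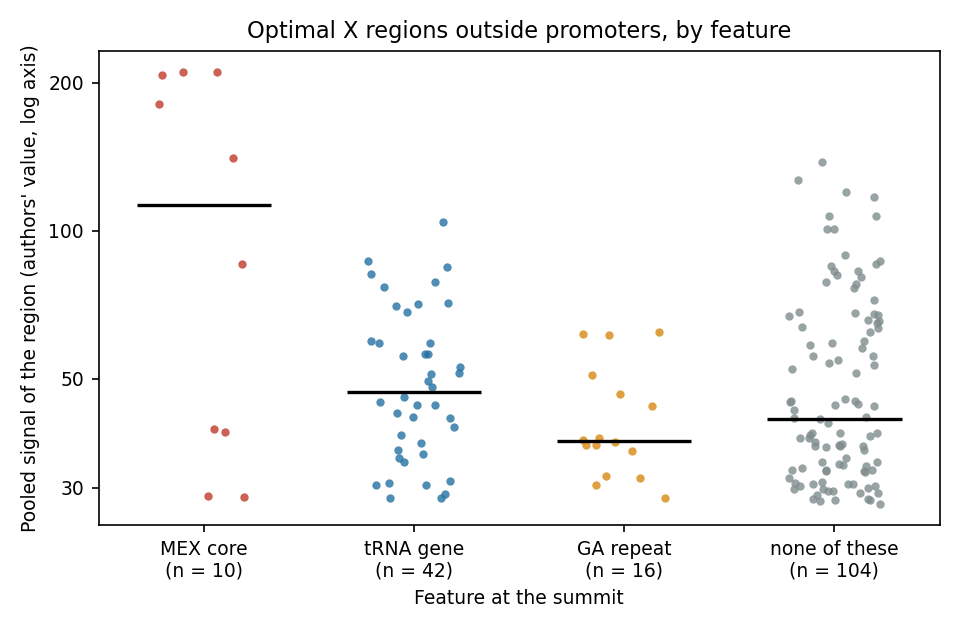
Pooled signal (y axis, the authors' value, log axis) of the 172 optimal X regions outside promoters, sorted into exclusive classes by what lies at the summit: GCGCAGG (MEX core), a tRNA gene within 200 bp, GAGAGAG (GA repeat) or none of these. Points are regions, spread sideways for visibility, and bars are medians (112.9, 46.93, 37.39 and 41.51). The 5 highest points are all in the MEX core class.

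Sorting the regions by what lies at the summit gave 4 exclusive classes, in the order GCGCAGG, tRNA gene, GAGAGAG and none of these. Of the X regions with GCGCAGG, 10 of 24 were optimal (41.7%, interval 24.5 to 61.2%), of those at tRNA genes 42 of 122 (34.4%), of those with GAGAGAG 16 of 74 (21.6%), and of the rest 104 of 2309 (4.50%). The median pooled signal of the optimal ones was 112.9 (28.82 to 209.8) with GCGCAGG, 46.9 (28.61 to 104.3) at tRNA genes, 37.4 (28.61 to 62.17) with GAGAGAG and 41.5 (27.86 to 137.9) in the rest. The largest class, with none of these features, thus held 104 of the 172.

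The strongest regions of the class without these features were near genes of varied kinds. The region at -6009 bp from K02D3.1 had a pooled signal of 137.9, with 53.1 (rank 70) in replicate 1 and 98.14 (rank 43) in replicate 2, and held 1 GCGNAGG match other than GCGCAGG. The region next to the ncRNA gene C30E1.9, 5822 bp from the start of C30E1.4, had 126.7, with 63.12 (rank 25) and 78.51 (rank 89). Regions near tmem-184 (119.8), near sma-9, a Schnurri-type zinc finger gene of the BMP-like pathway (117.3, at -3000 bp), and in an intron of aak-2, a catalytic subunit of AMP-activated kinase (107.1), came next. The aak-2 region stood at rank 482 in replicate 1 and rank 75 in replicate 2, so its order differed between the replicates. The remaining regions among the strongest 15 lay near fbxb-58, an F-box gene (106.9), dct-1, a BNIP3 homologue of mitophagy (101.0, in an exon of a non-coding gene), the class II histone deacetylase gene hda-4 (100.8) and F52G3.1 (89.39), and at a tRNA gene in an intron of sulp-3.

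tRNA genes marked the largest feature class. A tRNA gene lay within 200 bp of 42 of the 172 optimal X summits (24.4%), against 81 of the other 2357 (3.44%), a difference of 20.98 points (15.1 to 27.95). Over all pooled regions the share was 1.30%. On autosomes, 54 of 483 optimal regions outside promoters (11.2%) were near a tRNA gene, and the difference of X minus autosomal was 13.2 points (6.64 to 20.6). Of the other autosomal regions outside promoters, 104 of 9200 (1.13%) were near one. The X share was thus the higher one among the other regions as well, and the 13.2 points are not particular to the optimal list. The annotation lists 276 tRNA genes on X, of which 137 had an X region outside promoters within 200 bp and 48 had an optimal one.

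The summit lay inside the tRNA gene for 18 of the 48 genes, and the median summit stood 26 bp upstream of the tRNA start (offset -26 bp). The strongest was in the sulp-3 intron next to the asparagine tRNA gene F41D9.t3, with a pooled signal of 104.3, 36.45 (rank 213) in replicate 1 and 68.39 (rank 140) in replicate 2. Next came the M02F4.2 region printed above, between a glycine and a glutamate tRNA gene (86.63, rank 460 in replicate 1 and rank 223 in replicate 2), and the region near the serine tRNA gene K02A4.t1 (84.23). In the tRNA class the median rank was 1318 in replicate 1 and 840 in replicate 2, and 27 of the 42 were among the strongest 1917 of replicate 1 against 39 in replicate 2. By amino acid, optimal regions outside promoters were found at 7 of 20 glycine, 6 of 18 serine and 5 of 20 proline tRNA genes on X, and at 1 of 27 arginine and 0 of 6 phenylalanine genes. Many tRNA genes exist in near-identical copies, and no source used here says how reads that match several copies were placed, so which copy a signal belongs to is uncertain.

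GTTCGA, the core of the B box inside tRNA genes, was within 50 bp of 14 optimal summits (8.14%) and 111 of the others (4.71%), a difference of 3.43 points (0.0693 to 8.55), beside 4.88% of all pooled regions. Without replicate 1 the difference was 5.58 points, without replicate 2 it was 5.64 points, and with the regions near tRNA genes left out it was -2.11 points. Of the 14, 12 lay within 200 bp of a tRNA gene. On autosomes GTTCGA was at 8.49% of optimal and 4.62% of other regions outside promoters, a difference of 3.87 points (1.65 to 6.72). Other non-coding genes were also common: a gene annotated as ncRNA lay within 200 bp of 53 optimal summits (30.8%) and 427 of the others (18.1%), a difference of 12.7 points (6.08 to 20.1). Over all pooled regions the share was 7.12%. On autosomes it was 26.7% of the optimal and 7.52% of the other regions outside promoters, a difference of 19.2 points. Between optimal regions, X minus autosomal was 4.11 points, with an interval that includes 0 (-3.52 to 12.3). Of the 53 optimal X summits, 23 were near a tRNA gene as well. The strongest with an ncRNA gene were those at C30E1.9, the aak-2 intron (T01C8.9) and dct-1 (C14F5.10 and C14F5.11). A pair of optimal regions lay at tts-1, a long non-coding RNA that associates with ribosomes, with pooled signals of 86.8 and 28.31.

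Small RNA genes of other kinds were rare. A snoRNA gene lay near 1 optimal X region (K09E9.5, 38.87), or 0.581%, and 6 of the others, beside 0.567% of all pooled regions. On autosomes 41 of 483 optimal regions outside promoters were near one. A miRNA gene lay near 0 of the 172 (upper limit 2.19%) and 10 of the others, beside 0.173% of all pooled regions. Optimal regions near piRNA genes numbered 2 (1.16%, beside 1.06% of all pooled regions), at 21ur-14279 (38.97) and 21ur-14870 (30.34). Near a pseudogene lay 1 (0.581%, beside 2.09% of all pooled regions).

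**Figure D3:**
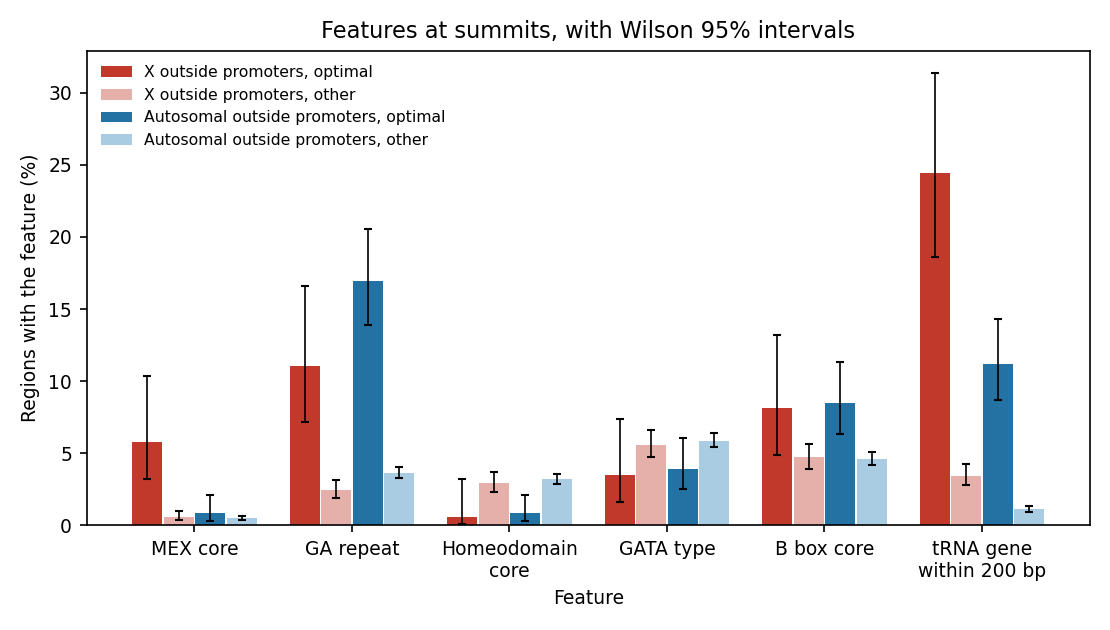
Share of regions (y axis, %) with each feature at the summit, for X regions outside promoters in the optimal list (dark red) and the others (light red), and for autosomal regions outside promoters in the optimal list (dark blue) and the others (light blue); whiskers are Wilson 95% intervals. The motifs are GCGCAGG (MEX core), GAGAGAG (GA repeat), TAATTA (homeodomain core), TGATAA (the one labelled GATA type) and GTTCGA (B box core), within 50 bp of the summit on either strand. The dark red bar is above the dark blue one for the MEX core (5.81 and 0.828%) and for tRNA genes (24.4 and 11.2%). For tRNA genes the light red bar is also above the light blue one (3.44 and 1.13%).

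GAGAGAG, a short GA repeat, was within 50 bp of 19 optimal summits (11.0%) and 58 of the others (2.46%), a difference of 8.59 points (4.66 to 14.2), beside 3.48% of all pooled regions. Without replicate 2 the difference was 5.31 points (2.18 to 10.3). On autosomes 82 of 483 optimal regions held it (16.98%), and the difference of X minus autosomal, -5.93 points, had an interval that includes 0 (-11.2 to 0.429). All 19 were ranked below 20 among the X regions outside promoters. The strongest, with 70.39, lay near W02H3.3 at the tRNA gene W02H3.t1. The strongest away from tRNA genes were near tps-1, a trehalose-6-phosphate synthase gene, with 62.17 (24.48, rank 589, in replicate 1 and 42.82, rank 450, in replicate 2), and near M02E1.3 with 61.54 (28.64, rank 419, and 37.08, rank 599).

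TAATTA, the core that homeodomain proteins such as LIM homeodomain factors are known to bind, was at 1 of 172 optimal summits (0.581%) and 69 of the others (2.93%), a difference of -2.35 points (-3.25 to 0.361), beside 2.39% of all pooled regions. TGATAA, a core known to be bound by GATA factors, was at 6 (3.49%) and 132 (5.60%), a difference of -2.11 points (-4.24 to 1.89), beside 5.78% of all pooled regions. Both intervals include 0, but with 100 bp on each side the differences were -4.62 points (-6.18 to -1.24) for TAATTA and -6.73 points (-9.55 to -2.15) for TGATAA, and neither interval included 0. The TAATTA interval also lay below 0 without replicate 1 (-3.31 points, -4.24 to -0.746). The lower TAATTA share was not particular to these regions. Optimal minus other was -2.38 points (-3.01 to -1.05) in autosomal regions outside promoters. In X promoter regions TAATTA was at 0 of 227 optimal and 33 of 1316 other summits. For TGATAA, optimal minus other was -1.95 points (-3.43 to 0.231) in autosomal regions outside promoters. In X promoter regions TGATAA was at 2 of 227 optimal (0.881%) and 103 of 1316 other summits (7.83%). The absence of a core in these windows says nothing about binding by the factor.

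Base composition differed between the groups. The median GC content of the 101 bp around the summit was 50.5% in the optimal X regions (interval of the median 49.5 to 51.5%) and 42.6% in the others. It was 51.5% in optimal autosomal regions outside promoters and 52.5% in optimal X promoters. Soft-masked repeat sequence made up a median of 0.0% of the window in the optimal regions and 18.8% in the others.

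A ranking of all 2080 6-mers, each joined with its reverse complement, by share in optimal minus share in other X regions was made next. The top 6 were GAGAGA (29.1% of optimal and 8.19% of other regions, difference 20.9 points, 14.5 to 28.1), AGAGAG (26.2 and 6.75%), AAGAGA (43 of 172 optimal regions, and 8.44% of the others), ACGCAG (19.8 and 3.65%, difference 16.1 points, 10.8 to 22.7), AGAGAA (43 of 172, and 10.2%) and GAGAAA (29.1 and 15.7%). Of these, 5 are overlapping forms of a GA-rich run. The most depleted were AAAAAT (8.72 and 31.48%, difference -22.8 points) and AAAATT (9.88 and 26.2%, difference -16.3 points), made of A and T alone. The ranking is a description, and the difference in GC content is part of it.

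The replicate lists were made from the reads that the pooled list was made from, so matches between them are partly built in. A summit of replicate 1 lay within 100 bp of 157 of the 172 optimal X summits (91.3%), and one of replicate 2 within 100 bp of 164 (95.3%). Both replicates had one for 151 (87.8%, interval 82.1 to 91.9%), against 519 of the 2357 others (22.02%), and against 90.3% in optimal autosomal regions outside promoters. Of the 172, 89 (51.7%) were among the strongest 1917 of both replicates, 55 of replicate 2 alone, 21 of replicate 1 alone and 7 of neither. Over all 1917 optimal regions, 57.4% were among the strongest 1917 of both, and 91.4% had a summit within 100 bp in both. The share among the strongest of both was 57.7% in optimal X promoter regions and 48.7% in optimal autosomal regions outside promoters. The regions near nfki-1 (pooled signal 50.85) and nhr-1 (37.49) had no summit within 100 bp in either replicate. The nearest summits lay 116 bp (replicate 1) and 104 bp (replicate 2) from the nfki-1 region, and 109 and 112 bp from the nhr-1 region.

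**Figure D4:**
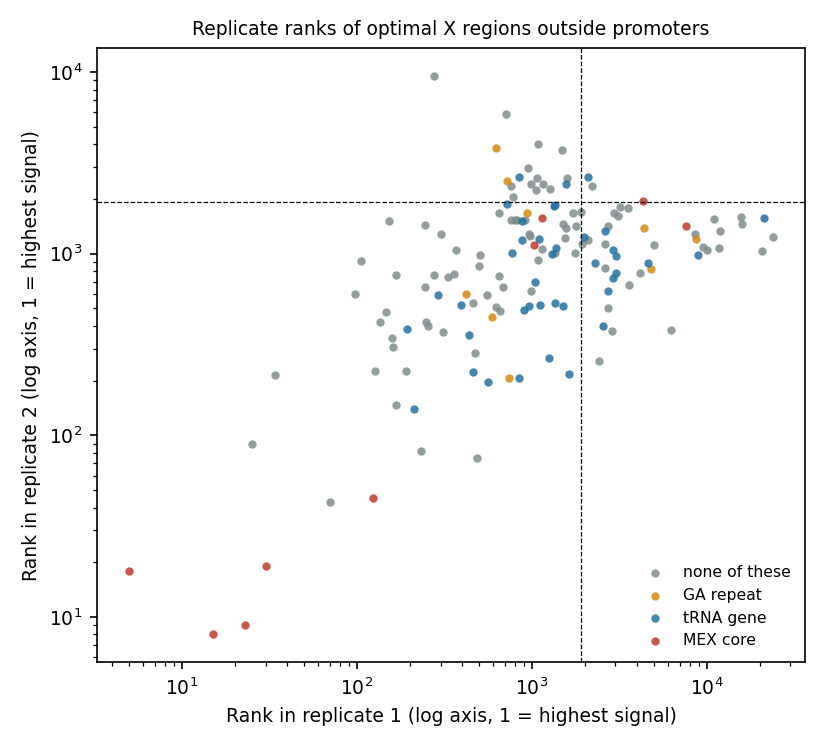
Rank in replicate 1 (x axis) against rank in replicate 2 (y axis), both on log axes with 1 the highest signal, for the 151 optimal X regions outside promoters matched in both; dashed lines mark rank 1917. Red points hold GCGCAGG (MEX core), blue ones lie at a tRNA gene, orange ones hold GAGAGAG (GA repeat) and grey ones none of these. A cluster of 5 red points sits at the lower left, at ranks 5 to 124 in replicate 1 and 8 to 45 in replicate 2.

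The classes differed in how many regions were among the strongest 1917 of both replicates, beside 89 of all 172 (51.7%). Such counts are partly built in, since the pooled signal comes from the same reads and differs by class. They are therefore no measure of how reproducible a class is. Of the 10 GCGCAGG regions, 7 were among the strongest 1917 of both replicates, with a median rank of 124 in replicate 1 over 9 matched and 112 in replicate 2 over 10. Of the 42 at tRNA genes 25 were, of the 16 with GAGAGAG 4, and of the 104 with none of these 53. In the GAGAGAG class 11 were matched in replicate 1 and 12 in replicate 2.

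Optimal regions were spread along the whole X chromosome. Each Mb held 4 to 20 of them (median 9), with the highest counts in the intervals of Mb 17 (20 of 205 regions), Mb 14 (17 of 133) and Mb 2 (16 of 181). Neighbouring optimal regions outside promoters stood a median of 56550 bp apart, and 8 of the 171 gaps were 1000 bp or shorter. A few genes had 3 or more. C30E1.4 was the nearest start to 4, of which 3 lie at C30E1.9 (126.7, 85.5 and 36.39) and 1 at the tRNA gene C30E1.t1 (28.61). The nuclear hormone receptor gene nhr-3 was nearest to 3 (65.64, 36.51 and 28.25), and introns of ZK470.2 held 3 (81.35, 63.38 and 30.76).

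Over all 2731 protein-coding genes of X, 147 (5.38%) were the nearest start to an optimal region outside promoters, and lists of gene kinds were read against that share. Of 7 X genes on the dosage compensation and X signal list, xol-1 was nearest to an optimal region. None of 23 X genes on the homeobox list, the class to which lin-11 itself belongs, was (upper limit 14.3%). Of 23 nuclear hormone receptor genes with names in nhr 3 were, nhr-3 (65.64), nhr-17 (55.61) and nhr-1 (37.49). The list went by that name alone and so leaves out receptor genes such as daf-12, which was nearest to 2 optimal regions (77.94 and 34.48). Of 34 neuropeptide genes 1 was, nlp-76 (53.91), whose UTR region lay 283 bp from a start. Of 27 ligand-gated channel genes 1 was, lgc-21 (55.51), of 27 collagen genes 2, col-181 (39.99) and col-174 (38.82), and of 28 chemoreceptor genes 2, srd-43 (76.78) and srg-64 (29.79). The regions assigned to lgc-21, col-181 and srd-43 lay at tRNA genes, so the nearest protein-coding start is not the nearest gene there. Each list's count is small, its interval contains the share over all X genes, and a nearest start is an assignment by distance, not a target.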

How the data were processed

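LIN-11 ChIP-seq was measured in 2 biological replicates of L2 larvae. The deposited ce11 region lists in narrowPeak format were used: 30000 regions for each replicate and for the pooled reads, and 1917 in the optimal list. Per the deposited notes, regions (peaks and background) were called against a control alignment and the optimal list derived from the pooled and replicate lists by the irreproducible discovery rate procedure. No source used here gives the caller, the aligner, their versions or the threshold. Each region has the authors' signal (column 7, scaling not stated) and the authors' −log10 q-value (column 9), which was not used for ranking. Read depth is unknown, so no counting error can be put on a signal. Lists on ce10 were not used here.

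Summits (start plus deposited offset) were placed with Ensembl release 115 on WBcel235, the same assembly as ce11, in the order promoter, coding exon, UTR, other exon, intron, intergenic. Other exon, called exons of non-coding genes above, means any remaining annotated exon, pseudogenes included. It also holds introns of non-coding transcripts outside protein-coding ones. Coordinates count from 1. A pooled region was optimal when it was in the optimal list. Motifs were searched 50 bp on each side of the summit on both strands, non-coding genes within 200 bp, and replicate summits within 100 bp. The strongest part of a replicate list means its 1917 regions of highest signal. Shares have Wilson and differences Newcombe 95% intervals, and medians exact order-statistic intervals. No p-value was computed, since regions are not replicates of a condition. The 6-mer ranking was run on random windows with a planted 6-mer, which came out on top. Those windows lacked the GC difference of the real ones, so the run checks the counting only. Python 3.11.15, pandas 2.3.3, numpy 2.4.6, scipy 1.17.1 and matplotlib 3.10.9 were used.

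The members, motifs and gene lists were chosen with earlier results of these data known. Named regions were the 15 strongest, the strongest of each place, the 2 on each side of the optimal limit, those of genes with 3 or more, the 3 strongest at each kind of non-coding gene and up to 4 per gene list, with the 6-mers at both ends of the ranking (6 at the top, 2 at the bottom). The weaker GCGCAGG regions, the xol-1 pair, the nfki-1 region, daf-12 and the GAGAGAG examples were named after their values were seen. Gene lists were matched by name. In the dosage list 3 names, and in the homeobox list 9, were not on X, and the homeobox list as fixed also held lin-18, a Wnt receptor gene. The dosage list as fixed also held dpy-22 and dpy-23, the latter an AP2 adaptor subunit gene.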

Additional observations from a re-analysis of the deposited data

How the results depend on the processing

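Of 138 values recomputed under alternatives, 120 stayed within the reported interval, 17 moved beyond it and 1 changed sign. The 120 include those with the middle of the region as summit, which could hardly change. Full-width optimal X regions have their summit at the middle, and only 4 are narrower. Those within it can still differ in size: TGATAA was -0.0528 points with the stronger 50% of the optimal list and -0.0629 with 25 bp on each side, and GTTCGA was 0.900 points (-1.11 to 4.85) with 25 bp. With promoter windows of 500 or 2000 bp the median distance of optimal regions to a start was 1802 or 2907 bp, by the windows' construction. With coding exons kept, the share in the optimal list was 4.58%, the intergenic difference 27.1 points and the intron difference -7.74 points. With the stronger 50% of the optimal list the share was 2.93% and the intergenic difference 11.1 points, with an interval that included 0 (-0.363 to 22.1). The intervals of TAATTA lay below 0 also with the 500 bp window and with the middle of the region as summit, and that of TGATAA with the 500 bp window. With the middle as summit, the TAATTA change came from the 1 optimal match, in the narrow mom-1 region, leaving the window. The UTR interval included 0 with the 2000 bp window, with coding exons kept, with the stronger 50% of either group and without regions near tRNA genes, and that of GTTCGA with the 2000 bp window and the stronger 50% of either group. With 100 bp on each side the differences were -4.62 points (-6.18 to -1.24) for TAATTA, -6.73 (-9.55 to -2.15) for TGATAA and 10.1 for GTTCGA, and the median GC content was 47.5%. Summits matched in both replicates for 66.3% at 50 bp and 99.4% by any overlap of regions.

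Some alternatives were chosen after seeing the data. With regions near tRNA genes left out, the share was 5.40%, the X minus autosomal difference 0.899 points (-0.0418 to 1.95), the exon difference 5.48 points (-0.0260 to 12.9) and GTTCGA changed sign to -2.11 points. With 2 or more GCGNAGG matches required, the difference was 2.28 points. GCGCAGG was at 4 or 5 of the strongest 5 regions under the 8 settings that change the regions or the optimal list, and at 4 with a 2000 bp window, with coding exons kept and without either replicate.

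With each replicate left out, the other's strongest 1917 regions stood in for the optimal list. The difference then ran from -3.31 to -1.89 points for TAATTA, from -4.20 to -3.11 for UTRs, from 3.11 to 5.59 for GCGCAGG, from 5.31 to 7.88 for GAGAGAG and from 5.58 to 5.64 for GTTCGA. No paired analysis was possible because there is 1 group. Depth is unknown, regions within a list are not independent, there is no sample without the tagged protein here, and the optimal list is the strongest part of the pooled list.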

Other observations

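Some genes of the heterochronic pathway, which times larval cell fates, were nearest to optimal X regions outside promoters. They were picked after their values were seen, so their number carries no weight, and no test was run. The nuclear hormone receptor gene daf-12 had 2 intronic regions, with pooled signals of 77.94 and 34.48. The first had 34.48 in replicate 1 (rank 254) and 45.61 in replicate 2 (rank 400). The transcription factor gene lin-14 had 2, with 62.18 in an intron and 59.62 at the ncRNA gene T25C12.7 inside it. The stronger had 30.52 in replicate 1 (rank 358) and 32.2 in replicate 2 (rank 777). The Argonaute gene alg-1 had 1 at -3395 bp, at the ncRNA gene K02B9.6, with 68.0, and the casein kinase gene kin-20 had 1 at the ncRNA gene F46F2.12, with 67.77. The alg-1 region stood at rank 106 in replicate 1 and rank 913 in replicate 2. None of these regions held GCGCAGG or GAGAGAG within 50 bp of the summit or lay within 200 bp of a tRNA gene.

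The atonal-type gene lin-32 and the ETS factor gene ets-5, both of neuronal fate, were nearest starts to regions of 59.18 and 59.57. Both regions lay at tRNA genes, T14F9.t1 and C42D8.t1, so the nearest protein-coding start there is 2907 bp and -1144 bp away from a summit beside another kind of gene.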
